A study of Mus musculus with 60 samples.

Results

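Gli2 and 7 further genes of the Hedgehog pathway (Gli1, Gli3, Ptch1, Smo, Sufu, Kif7 and Gpr161) are described here in nascent RNA from mouse embryonic stem cells, as 8 of the 24260 gene symbols with a value. They were chosen by symbol, each represented by its RefSeq transcript with the highest summed RPKM over the 4 libraries, with no expression minimum. RPKM are reads scaled by the length of the gene model and by library depth. Gli2 had drawn attention in the same siEsrrb against siCtrl comparison, so the differences of the 8 genes between those groups are given as a description and carry no test.

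The cells were E14 mouse embryonic stem cells. An Esrrb siRNA had been transfected for 2 of the libraries (siEsrrb) and a control siRNA for the other 2 (siCtrl), and all were harvested 72 h later. Esrrb encodes an orphan nuclear receptor of the naive pluripotency network, and the study asked how enhancers and promoters communicate within chromatin domains. RNA bound to the chromatin pellet was sequenced with strand information after ribosomal RNA was depleted, so unfinished transcripts with their introns make up much of the signal. The labels do not say whether the libraries of a group came from separate cultures, so every p-value below measures only the spread between these libraries, which may be technical.

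Hedgehog ligands bind the receptor Patched, which otherwise holds the membrane protein Smoothened inactive. Active Smoothened works at the primary cilium, where it relieves the GLI transcription factors from the restraint of Sufu, Kif7, Gpr161 and protein kinase A. Without ligand GLI3, and to a lesser degree GLI2, are cut to repressors; with ligand GLI2 is the main activator, and Gli1, Ptch1 and Hhip are its classical target genes.

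The RefSeq promoter windows of Gli2 and of the tested genes on either side of it, Tfcp2l1 and Inhbb, are shown because these 3 adjacent tested genes all had less nascent RNA in siEsrrb. Each window runs from 250 bases before to 50 after the annotated start on GRCm38.p6: chr1:119053570-119053869 on the minus strand for Gli2, chr1:118627695-118627994 on the plus strand for Tfcp2l1 and chr1:119422199-119422498 on the minus strand for Inhbb. Capitals mark a match to either of 2 motifs, searched on both strands: AAGGTCA, the core that Esrrb and related receptors recognise, and ACCACCC, the core of the GLI recognition sequence.
Gli2: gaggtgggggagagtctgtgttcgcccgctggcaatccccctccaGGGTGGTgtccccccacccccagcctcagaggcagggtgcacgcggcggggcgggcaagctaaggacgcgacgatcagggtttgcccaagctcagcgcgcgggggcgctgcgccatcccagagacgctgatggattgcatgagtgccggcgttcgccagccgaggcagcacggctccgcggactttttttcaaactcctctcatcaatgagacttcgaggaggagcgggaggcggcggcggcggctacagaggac
Tfcp2l1: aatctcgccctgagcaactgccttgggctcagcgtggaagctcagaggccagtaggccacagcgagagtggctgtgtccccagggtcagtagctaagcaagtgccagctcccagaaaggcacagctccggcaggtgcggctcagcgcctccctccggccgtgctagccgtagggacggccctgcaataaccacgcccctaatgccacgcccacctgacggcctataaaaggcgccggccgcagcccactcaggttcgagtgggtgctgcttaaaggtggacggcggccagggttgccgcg
Inhbb: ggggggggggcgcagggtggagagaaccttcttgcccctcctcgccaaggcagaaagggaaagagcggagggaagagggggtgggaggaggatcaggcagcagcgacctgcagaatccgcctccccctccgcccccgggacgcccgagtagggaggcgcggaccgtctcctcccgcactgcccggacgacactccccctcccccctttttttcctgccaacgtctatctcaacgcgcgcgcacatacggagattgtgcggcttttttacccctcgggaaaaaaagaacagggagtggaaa
The Gli2 window holds 1 GLI core, read on the opposite strand at position -205 from the start, and 0 Esrrb cores. Both motifs had 0 matches in the Tfcp2l1 and Inhbb windows. Of 32851 promoter windows of this length, 4.61% hold the GLI core and 4.72% the Esrrb core, so 1 match is a description of the letters and not of a binding site. Among the other members with a window, Gpr161 had an Esrrb core at position -81 of 1 of its 2 annotated starts, and Gli3, Ptch1, Smo, Sufu and Kif7 had 0 matches to either motif. No window of Gli1 was printed or searched.

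The targeted gene was examined first. Esrrb (NM_011934) had 1.38 and 2.20 RPKM in siEsrrb replicates 1 and 2, against 3.23 and 3.36 RPKM in siCtrl replicates 1 and 2, which is 44.2% and 67.0% of the control after scaling. Its fitted log2 fold change was -0.72 (SE 0.15, limma adjusted p 0.281), so the targeted gene itself did not pass the adjusted test. The libraries differed in depth more by replicate number than by group, with 22363943 and 61857158 reads behind the RPKM in siEsrrb and 24764879 and 68002338 in siCtrl. The 10 embryonic stem cell markers, among them Esrrb and Tfcp2l1, were all above the expression minimum, and their summed scaled RPKM was 82.8 and 80.2 in siEsrrb, against 106 and 102 in siCtrl. Of the 10, 7 were lower without overlap, Esrrb and Tfcp2l1 among them, 1 was higher and 2 overlapped. Over all tested genes, 22.0% were lower and 21.8% were higher without overlap. Pou5f1, which encodes Oct4, was the higher marker, at 169% and 108% of control, and Sall4 stood at 122% and 116%. Neuroectoderm markers summed to 8.40 and 8.16 scaled RPKM in siEsrrb, against 6.48 and 5.54 in siCtrl. Of the 8, 4 were above the minimum, Nes was the most abundant and 1 was listed at 0 in all libraries. The 4 did not share a direction, with fitted log2 fold changes from -0.68 to 0.87, so the sum does not stand for each marker. The 8 mesendoderm markers summed to 0.275 to 0.300 in siEsrrb and 0.328 to 0.426 in siCtrl, with 0 above the minimum. Primitive endoderm markers summed to 3.2 and 3.74 in siEsrrb, against 5.27 and 5.02 in siCtrl, with 2 of 8 above the minimum. These 2 differed in sign, with fitted log2 fold changes of -1.27 and 0.14. Fibroblast markers summed to 4.68 and 5.03 in siEsrrb, against 4.23 and 4.35 in siCtrl, with 2 of 8 above it and 1 listed at 0. The part of these differences in the Hedgehog values below was not tested, and in bulk RNA fewer cells of a kind and less RNA per cell cannot be told apart.

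All 8 Hedgehog genes had reads in every library, between 148 and 51114 per gene and library. Gli2 and Gli1 were lower in siEsrrb, Gli3 and Smo were slightly higher, and the scaled libraries of the 2 groups overlapped for Ptch1, Sufu, Kif7 and Gpr161. Over all 9758 genes above the expression minimum (a mean of 0.5 RPKM), 22.0% lay lower without overlap and 21.8% higher without overlap, and nothing is read from the members' count beside these shares. A stricter rule asked for a gap of 1.5-fold or more in RPKM + 0.5 between the nearest libraries of the groups. By this rule 0.615% of tested genes were lower and 0.666% were higher, and Gli2 alone of the 8 met it.

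**Figure D1:**
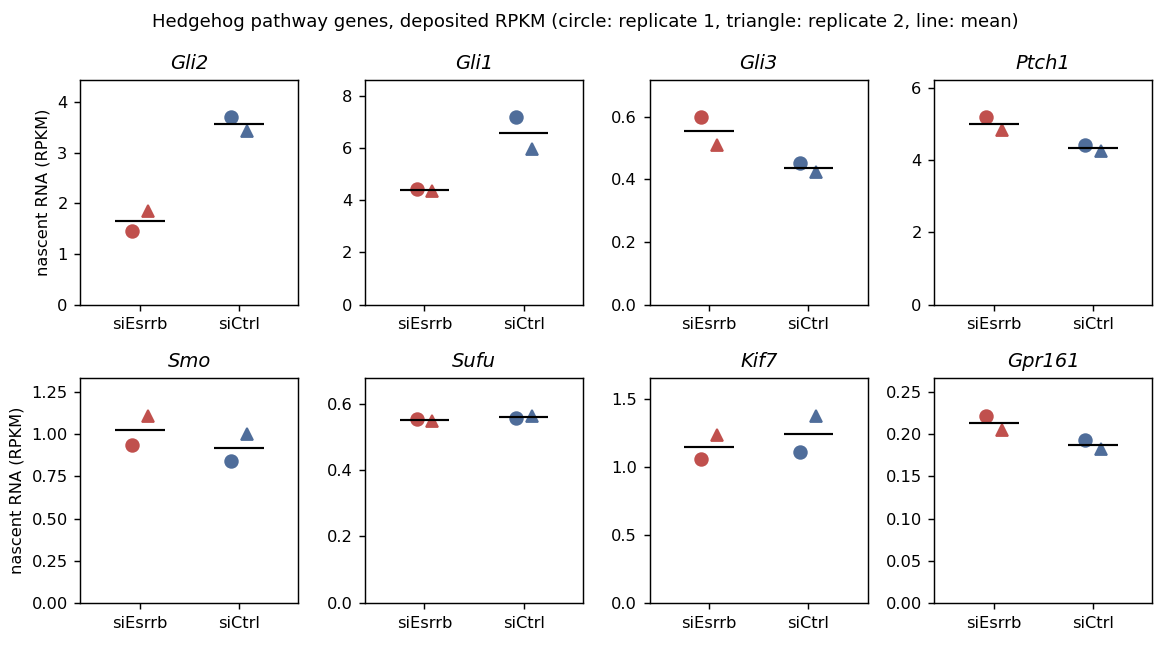
Nascent RNA of the 8 Hedgehog pathway genes in deposited RPKM (vertical axes, each starting at 0), with siEsrrb libraries left and siCtrl libraries right, circles for replicate 1, triangles for replicate 2 and lines for the mean of 2 libraries. Gli2 lay at 1.46 and 1.85 RPKM in siEsrrb, under both siCtrl libraries at 3.70 and 3.42, whereas Sufu lay between 0.549 and 0.564 RPKM in all 4.

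Gli2 (NM_001081125, chromosome 1), the main activator among the GLI factors, had 1.46 and 1.85 RPKM in siEsrrb replicates 1 and 2, against 3.70 and 3.42 RPKM in siCtrl replicates 1 and 2. These values rest on 7177 and 25088 reads in siEsrrb and 20114 and 51114 in siCtrl over a gene model of 219559 bases that includes the introns. Both siEsrrb libraries lay well under both siCtrl libraries, with the lowest control 1.63 times the highest knockdown value after the 0.5 RPKM was added. After scaling, Gli2 averaged 1.67 ± 0.114 RPKM in siEsrrb and 3.52 ± 0.506 RPKM in siCtrl (SD, n = 2 each). Set against the control of the same number, replicate 1 was at 40.9% (exact 95% interval 39.9 to 42.1) and replicate 2 at 55.3% (54.5 to 56.2), where the intervals cover counting error only. The 2 intervals are far apart, so the libraries differed from each other by more than counting error. The fitted log2 fold change on the log2(RPKM + 0.5) scale was -0.89 (SE 0.12), and 80 of the 9758 tested genes had a lower one.

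Gli1 (NM_010296, chromosome 10), a GLI activator that is itself induced by the pathway, had 4.43 and 4.35 RPKM in siEsrrb, against 7.18 and 5.96 RPKM in siCtrl. The siEsrrb libraries were nearly equal and both lay under the 2 controls, which differed from each other. Reads numbered 1158 and 3148 in siEsrrb and 2079 and 4742 in siCtrl over 11698 bases, and the scaled means were 4.47 ± 0.488 RPKM in siEsrrb and 6.52 ± 1.43 RPKM in siCtrl (SD, n = 2 each). Against the control of the same number, replicate 1 stood at 63.9% (counting interval 59.4 to 68.7) and replicate 2 at 74.8% (71.5 to 78.3). The fitted log2 fold change was -0.49 (SE 0.18), with 255 tested genes lower. It was -0.28 without siCtrl replicate 1 and -0.70 without siCtrl replicate 2, so its size rests on which control is used. Gli1 overlaps Arhgap9, a gene with 270 reads over the 4 libraries.

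Gli3 (NM_008130, chromosome 13), the main GLI repressor when ligand is absent, was scarce, at 0.599 and 0.510 RPKM in siEsrrb, against 0.453 and 0.423 RPKM in siCtrl. Both siEsrrb libraries lay above both controls, by a narrow margin that closed when libraries were scaled by the upper quartile. Because its model spans 266303 bases, even these levels rest on 3570 and 8396 reads in siEsrrb and 2987 and 7653 in siCtrl. Replicate 1 was at 137% of its control (counting interval 131 to 144) and replicate 2 at 124% (120 to 128). Its mean of 0.496 RPKM lay just under the 0.5 RPKM minimum, and a fit without that minimum gave a log2 fold change of 0.19 (SE 0.12).

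**Figure D2:**
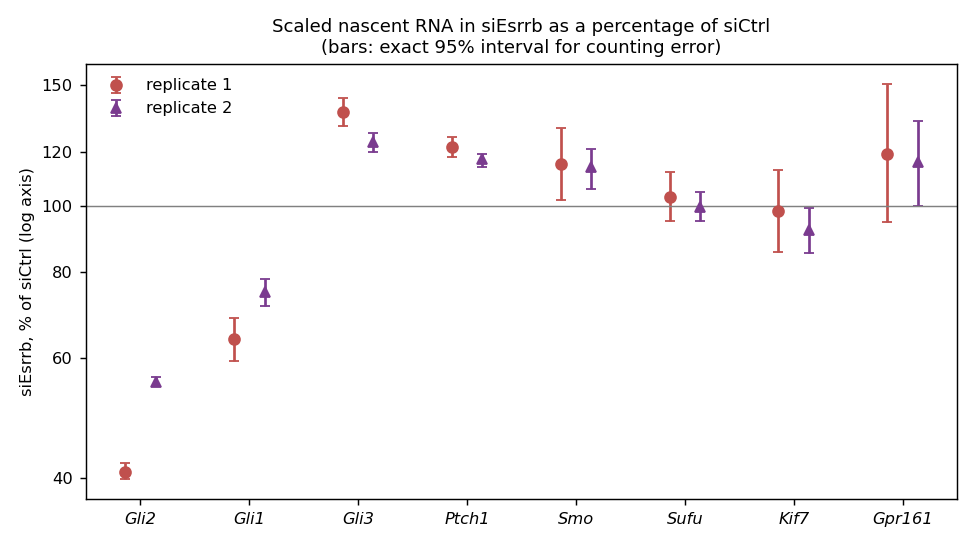
Scaled nascent RNA in each siEsrrb library as a percentage of the siCtrl library of the same number (vertical log axis), for the 8 genes along the horizontal axis, with circles for replicate 1, triangles for replicate 2 and bars for the exact 95% interval of counting error. Gli2 and Gli1 lie under 100% in both replicates (40.9 and 55.3% for Gli2), and Gli3, Ptch1, Smo and Gpr161 lie above it (137 and 124% for Gli3).

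Among the 3 GLI genes the balance within a library differed between the groups. This ratio needs no scaling between libraries, and the gene model length stays the same in all 4. The ratio of Gli2 to Gli3 RPKM was 2.44 and 3.62 in siEsrrb replicates 1 and 2, against 8.17 and 8.10 in siCtrl. For Gli1 to Gli3 it was 7.38 and 8.54 in siEsrrb, against 15.8 and 14.1 in siCtrl. In both ratios, which share Gli3, the siEsrrb libraries lay under the siCtrl libraries without overlap. Gli1 to Gli2 went the other way, at 3.03 and 2.36 in siEsrrb, against 1.94 and 1.74 in siCtrl. Of the summed RPKM of the 3 genes, 6.49 and 6.71 in siEsrrb and 11.3 and 9.81 in siCtrl, Gli2 made up 22.5% and 27.5% in siEsrrb, against 32.7% and 34.9% in siCtrl. Gli3 made up 9.24% and 7.60% in siEsrrb, against 4.00% and 4.31% in siCtrl, and Gli1 held the rest and most of the sum in every library. These are shares of nascent RNA per gene length, and protein levels or the cut and uncut forms of GLI2 and GLI3 were not measured.

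Ptch1 (NM_008957, chromosome 13), the main Hedgehog receptor and a classical GLI target, did not share the lower values of Gli1 and Gli2. It had 5.18 and 4.83 RPKM in siEsrrb, against 4.40 and 4.25 RPKM in siCtrl, from 6652 and 17168 reads in siEsrrb and 6260 and 16579 in siCtrl. As deposited both siEsrrb libraries lay above both controls, and after scaling the groups overlapped, at 5.11 ± 0.744 RPKM in siEsrrb and 4.27 ± 0.49 RPKM in siCtrl (SD, n = 2 each). The replicates were at 122% (counting interval 118 to 126) and 117% (114 to 119) of control, with a fitted log2 fold change of 0.23 (SE 0.14), which was 0.09 without siEsrrb replicate 1, 0.12 without siCtrl replicate 2 and 0.37 without siEsrrb replicate 2. The longer transcript NM_001328514 gave 123% and 117%. Gli1 to Ptch1 within a library was 0.854 and 0.900 in siEsrrb, against 1.63 and 1.40 in siCtrl, so the order of these 2 target genes by level was reversed between the groups. Gli2 to Ptch1 was 0.282 and 0.382 in siEsrrb, against 0.840 and 0.806 in siCtrl. Gli3 to Ptch1 was slightly higher in siEsrrb, at 0.116 and 0.105, against 0.103 and 0.0995 in siCtrl.

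Smo (NM_176996, chromosome 6), the signal transducer held in check by Patched, had 0.937 and 1.11 RPKM in siEsrrb, against 0.841 and 1.00 RPKM in siCtrl. The deposited values overlapped and the scaled ones did not, at 1.04 ± 0.0243 RPKM in siEsrrb and 0.905 ± 0.031 RPKM in siCtrl (SD, n = 2 each). The replicates stood at 115% (counting interval 102 to 130) and 114% (106 to 121) of control, and the fitted log2 fold change was 0.13 (SE 0.06).

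Of the restraints on GLI, Sufu and Kif7 lay close to control and Gpr161 was above it in both replicates. Whether their groups overlapped depended on the scaling. As deposited, Sufu was lower and Gpr161 higher without overlap, and with upper quartile scaling Kif7 was lower without overlap. Sufu (NM_001025391, chromosome 19), which binds GLI proteins and keeps them inactive, had 0.554 and 0.549 RPKM in siEsrrb, against 0.556 and 0.564 RPKM in siCtrl. That is 103% (counting interval 95.1 to 112) and 99.7% (95.0 to 105) of control after scaling, with a fitted log2 fold change of 0.01 (SE 0.09). Kif7 (NM_001291222, chromosome 7), a kinesin that organises the tip of the cilium, had 1.06 and 1.24 RPKM in siEsrrb, against 1.11 and 1.38 RPKM in siCtrl. Its replicates stood at 98.5% (85.6 to 113) and 92.2% (85.5 to 99.5) of control, the log2 fold change was -0.05 (SE 0.07), and the scaled groups overlapped. Kif7 overlaps Ticrr, a DNA replication gene with 22187 reads over the 4 libraries and a log2 fold change of -0.33 (SE 0.10, limma adjusted p 0.407 over all genes). How the counting treated strand is not given in the sources used here, so reads of overlapping or antisense genes cannot be told apart. Gpr161 (NM_001081126, chromosome 1), a ciliary receptor that raises cyclic AMP, was the scarcest member at 0.222 and 0.205 RPKM in siEsrrb, against 0.193 and 0.182 RPKM in siCtrl. With 154 and 393 reads in siEsrrb and 148 and 383 in siCtrl its counting intervals were wide, 94.7 to 151% of control in replicate 1 and 100 to 133% in replicate 2. It lay under the expression minimum, gave 0.07 (SE 0.06) in the fit without one, and overlaps Tiprl, which had 5435 reads.

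By mean scaled RPKM, a level per length of gene model, Ptch1 (5.11) and Gli1 (4.47) came first in siEsrrb and overlapped. Gli2 (1.67), Kif7 (1.17) and Smo (1.04) followed without overlap, Gli3 (0.567) and Sufu (0.561) overlapped, and Gpr161 (0.218) was lowest in siEsrrb. In siCtrl the order ran from Gli1 (6.52) through Ptch1 (4.27), Gli2 (3.52), Kif7 (1.22), Smo (0.905), Sufu (0.553) and Gli3 (0.433) to Gpr161 (0.185), and no neighbours in it overlapped. Gpr161 was thus lowest in both groups, and by mean the places of Ptch1 and Gli1 and of Gli3 and Sufu were exchanged between them. For Gli3 and Sufu the exchange held in siEsrrb replicate 1 and not in replicate 2, where Sufu (0.549 RPKM) lay above Gli3 (0.510 RPKM).

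**Figure D3:**
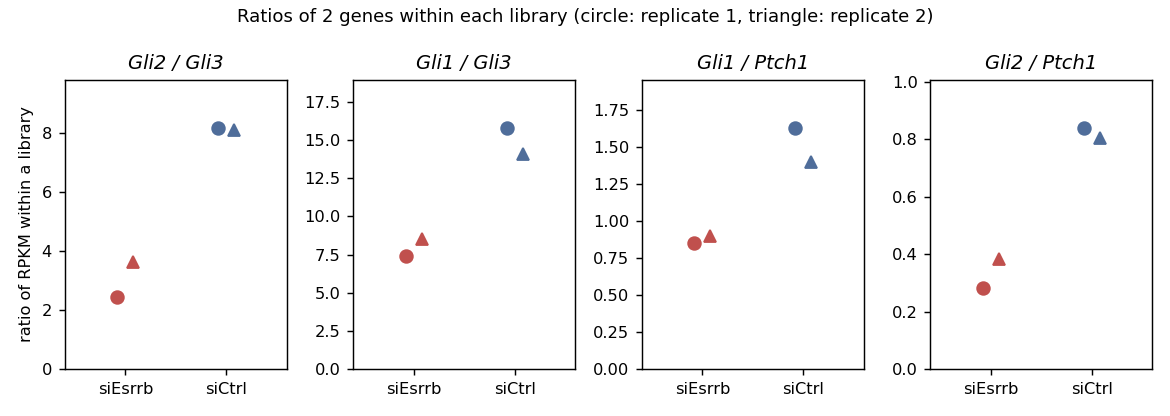
Ratios of RPKM between pairs of pathway genes within each library (vertical axes, each starting at 0), siEsrrb left and siCtrl right, with circles for replicate 1 and triangles for replicate 2. All 4 ratios set Gli1 or Gli2 over Gli3 or Ptch1, so they share genes, and their common direction follows from the choice of pairs. The siEsrrb points lie under the siCtrl points, with Gli2 to Gli3 at 2.44 and 3.62 in siEsrrb against 8.17 and 8.10 in siCtrl. Gli1 to Gli2 and Gli3 to Ptch1, not drawn, were higher in siEsrrb.

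The genes beside Gli2 on chromosome 1 include its 2 nearest tested neighbours, and both had larger differences than Gli2. Tfcp2l1, a CP2-family factor of naive stem cells, had 0.773 and 1.18 RPKM in siEsrrb, against 2.86 and 3.04 RPKM in siCtrl. It stood at 28.0% and 39.8% of control, from 989 and 4184 reads in siEsrrb and 4047 and 11843 in siCtrl, with a log2 fold change of -1.21 (SE 0.12, limma adjusted p 0.247). Inhbb, which encodes the beta B subunit of activins and inhibins, had 0.112 and 0.162 RPKM in siEsrrb, against 1.26 and 0.964 RPKM in siCtrl. Only 17 and 68 reads lay behind the siEsrrb values, against 211 and 445 in siCtrl, and it stood at 9.25% (counting interval 5.29 to 15.2) and 17.2% (13.1 to 22.3) of control. Its log2 fold change of -1.32 (SE 0.16, limma adjusted p 0.247) understates that ratio because the added 0.5 RPKM is larger than its siEsrrb values.

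Beyond these 2 genes the fitted values were near 0 on both sides. Clasp1, a microtubule plus-end gene next to Tfcp2l1, had a log2 fold change of -0.03 (SE 0.08), and Tmem185b, a membrane protein gene next to Inhbb, had 0.13 (SE 0.11). The others among the 5 tested genes on either side were Dsel (0.14), Tsn (0.08), Nifk (0.02), Epb41l5 (-0.03), Ptpn4 (-0.12) and Dbi (-0.02). Of the 10 neighbours 3 were lower without overlap (Tfcp2l1, Inhbb and Ptpn4), 0 were higher and 7 overlapped, beside 22.0% lower and 43.8% apart in either direction among all tested genes. The promoter windows of Tfcp2l1, Gli2 and Inhbb printed above belong to the 3 adjacent tested genes that all met the 1.5-fold rule. Gli2 was chosen on this comparison and its neighbourhood was added after the values were seen, so this is a description of the locus. Between Tfcp2l1 and Inhbb the annotation lists 8 genes besides Gli2, of which 1 had a row, the microRNA gene Mir6346 inside Gli2, which was listed at 0. Tested here means above the expression minimum, so genes that are adjacent in this order can have others between them.

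**Figure D4:**
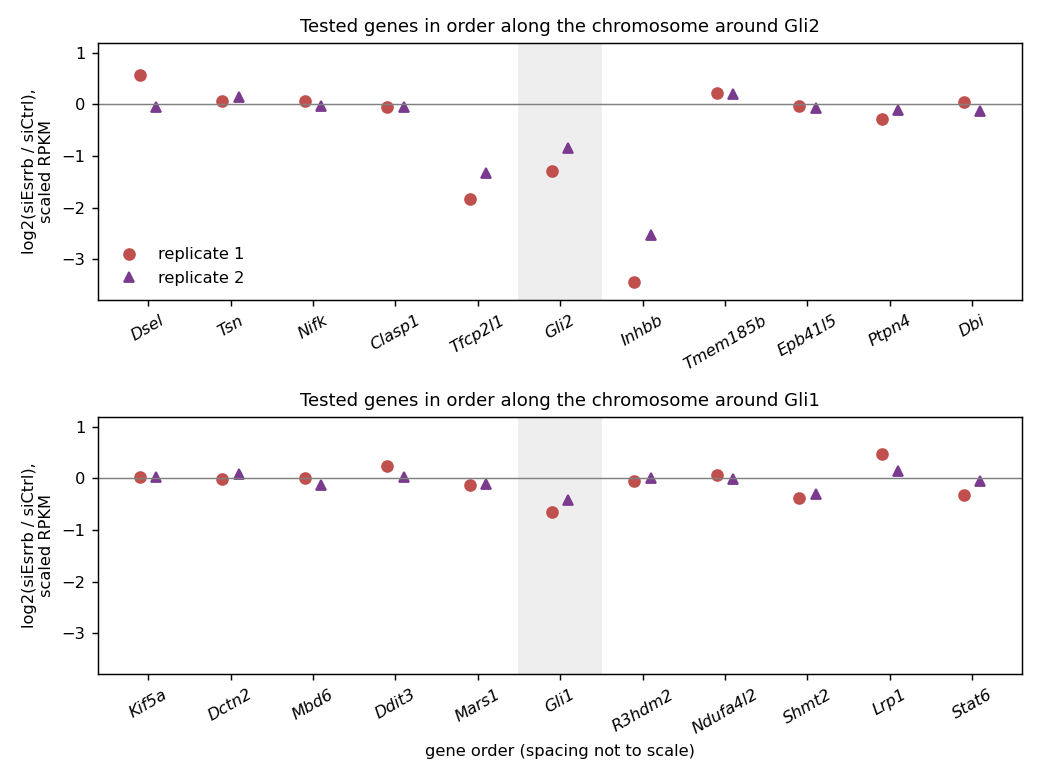
Log2 ratio of scaled RPKM, siEsrrb over siCtrl of the same replicate number (vertical axis, no pseudocount), for the 5 tested genes on either side of Gli2 (top) and Gli1 (bottom) in gene order, with circles for replicate 1 and triangles for replicate 2. Tfcp2l1, Gli2 (-1.29 and -0.85) and Inhbb lie under the other genes of the top panel in both replicates, while in the bottom panel Gli1 (-0.65 and -0.42) is the lowest in both replicates, with Shmt2 at -0.38 and -0.30 and Lrp1 at 0.48 and 0.15.

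Gli1 on chromosome 10 had neighbours with smaller differences than its own. Mars1, a tRNA synthetase gene on one side, had a log2 fold change of -0.11 (SE 0.19, limma adjusted p 0.877), and R3hdm2 on the other side had -0.01 (SE 0.06). Of the 10 nearest tested genes 1 was lower without overlap, Shmt2, a mitochondrial enzyme of serine metabolism (-0.33, SE 0.12, limma adjusted p 0.447), 0 were higher and 9 overlapped, beside the same 43.8% apart over all tested genes. The rest were Kif5a (0.01), Dctn2 (0.04), Mbd6 (-0.05), Ddit3 (0.10), Ndufa4l2 (0.00), Lrp1 (0.19) and Stat6 (-0.09).

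Nearest tested genes of the other 6 members had log2 fold changes between -0.33 and 0.28, none past the limma adjusted test. Beside Gli3, AW209491 had 0.21 (SE 0.08, limma adjusted p 0.447) and Mplkip 0.28 (SE 0.19, limma adjusted p 0.635), both of the same sign as Gli3. Beside Ptch1, the Fanconi anaemia gene Fancc had -0.07 and the repair gene Ercc6l2 0.04. The nuclear import receptor gene Tnpo3 (-0.06) and Ahcyl2 (-0.15) flank Smo, and the dynactin gene Actr1a (0.00) and the ubiquitin ligase gene Trim8 (-0.04) flank Sufu. Kif7 lies between Ticrr, given above, and the adaptor complex gene Ap3s2 (-0.12), and Gpr161 between Tiprl (-0.08) and Dcaf6 (0.01).

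Of 55 other genes of the Hedgehog pathway, fixed as lists by role, 33 were above the expression minimum and 22 were not. None passed limma at an adjusted p of 0.05 (smallest adjusted p 0.321), beside 0.0% of all 9758 genes, whose smallest adjusted p was 0.247. Unadjusted limma p-values under 0.05 were found for 2 higher genes, Lrp2 and Bcl2, and for 0 lower ones, against 5.92% of all genes higher and 5.33% lower. Groups without overlap numbered 6 higher and 5 lower, 33.3% of the 33 against 43.8% of all genes tested. The median log2 fold change was -0.02, within a range of -0.35 to 0.57, and the median over all genes was -0.00104.

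Genes of ligand production and handling were low in RPKM. Hhat had 250 and 825 reads in siEsrrb and 346 and 1142 in siCtrl, over a model of 260704 bases. Shh had 0 reads in both siEsrrb libraries, against 0 and 2 reads in siCtrl replicates 1 and 2. Of the 7 listed genes 0 were above the expression minimum, and the highest mean over the 4 libraries was 0.053 RPKM. Disp1, which releases ligand from cells, was listed at 0 in all 4. A row of 0 gives no model length, and whether that 0 is a missing value cannot be told apart.

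Of 6 genes of coreceptors and decoys, 3 were tested, and 1 lay apart without overlap. That is 33.3% of the 3, against 43.8% of all genes tested. Lrp2, which encodes megalin, an endocytic receptor that binds Sonic hedgehog in the forebrain, had 3.28 and 2.75 RPKM in siEsrrb, against 2.09 and 1.77 RPKM in siCtrl. It stood at 162% and 159% of control (log2 fold change 0.57, SE 0.19, limma adjusted p 0.414). The coreceptor gene Cdon had 0.09 (SE 0.14) and the glypican gene Gpc3, which competes with Patched for ligand, 0.04. Hhip, a ligand decoy and GLI target, lay under the minimum at 0.302 and 0.282 RPKM in siEsrrb, against 0.563 and 0.326 RPKM in siCtrl, or 55.5% and 88.7% of control. Its groups overlapped after scaling.

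The ciliary machinery had the narrowest range of the lists with more than 1 tested gene, from -0.09 to 0.01 over 7 tested genes of 15 (median -0.05). Tulp3, which carries Gpr161 into the cilium, had -0.09, Evc2, of the complex that passes on the Smoothened signal, had -0.07, and the kinesin-2 motor genes Kif3b and Kif3a had -0.06 and -0.05. All 17 genes of kinases, the Gs protein and ubiquitin ligases were tested, with a median of -0.04. The casein kinase genes Csnk1e (-0.35, SE 0.19, limma adjusted p 0.568) and Csnk1a1 (-0.29, SE 0.18, limma adjusted p 0.616), whose products phosphorylate GLI proteins or Smoothened, had the lowest values. Gnas, the Gs alpha subunit, had 0.20 (SE 0.08, limma adjusted p 0.496), and the ubiquitin ligase gene Itch had -0.15 (SE 0.08, limma adjusted p 0.543).

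Known Hedgehog targets did not lie on one side. The 6 tested of 11 had a median of 0.24, with 2 higher and 1 lower without overlap (Bcl2, Mycn and, as the lower one, Sfrp1). That is 50.0% of the 6, against 43.8% of all genes tested. Sfrp1, a secreted Wnt inhibitor, had -0.27 (SE 0.11, limma adjusted p 0.491), whereas the cyclin gene Ccnd1 had 0.31 (SE 0.19) and Mycn 0.28 (SE 0.15). Bcl2, an inhibitor of cell death, had 0.694 and 0.639 RPKM in siEsrrb, against 0.285 and 0.422 RPKM in siCtrl, a log2 fold change of 0.48 (SE 0.12, limma adjusted p 0.321). That value comes from the short transcript NM_177410 with 33 and 84 reads in siEsrrb and 15 and 61 in siCtrl. The long transcript NM_009741, which has more reads, gave 0.0878 and 0.0726 RPKM in siEsrrb, against 0.0708 and 0.063 RPKM in siCtrl, or 128% and 118% of control, and lay under the expression minimum.

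**Figure D5:**
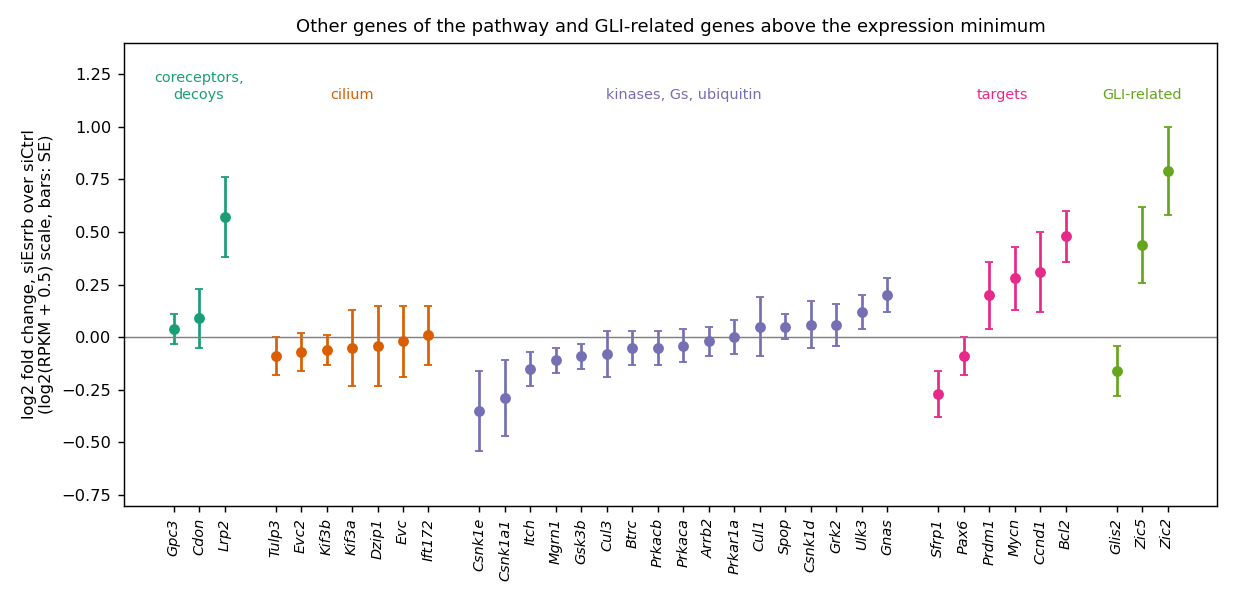
Fitted log2 fold change of siEsrrb over siCtrl on the log2(RPKM + 0.5) scale (vertical axis, bars for 1 SE) for the tested genes of the other Hedgehog lists and of the GLI-related list, grouped by role along the horizontal axis. The cilium genes lie between -0.09 and 0.01, while Lrp2 (0.57) is the highest of the coreceptors and Csnk1e (-0.35) the lowest of the kinases. Of these genes 0 passed the limma adjusted test.

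Of 7 zinc finger genes related to GLI, 3 were tested and 0 passed. Zic2, a forebrain factor and formative-state gene, had 4.76 and 3.74 RPKM in siEsrrb, against 2.43 and 2.19 RPKM in siCtrl, which is 203% and 175% of control. Both siEsrrb libraries lay above both controls, with a log2 fold change of 0.79 (SE 0.21, limma adjusted p 0.349). Zic5, a close neighbour of Zic2 in the genome, had 0.44 (SE 0.18, limma adjusted p 0.477), and Glis2 had -0.16 (SE 0.12, limma adjusted p 0.676). Zic2 and Gli2 therefore differed in sign, and the difference between them was not tested.

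The genes whose log2 values over the 4 libraries lay closest to those of Gli2, each centred on its own mean, were Dcbld1 (root mean square difference 0.0117), Zfp57 (0.032), Tmem64 (0.0363), Zfp42 (0.0462) and Gabbr1 (0.0531), among 9757 genes compared. Their log2 fold changes were -0.89, -0.93, -0.81, -0.85 and -0.79, beside -0.89 for Gli2. Likeness and fold changes were both taken on log2(RPKM + 0.5), so equal values are not equal percentages of control. Without the added 0.5, Dcbld1 stood at 26.5% and 41.8% and Tmem64 at 32.1% and 49.0%, under Gli2 at 40.9% and 55.3%. Zfp57 (43.9% and 60.5%), Zfp42 (46.6% and 62.8%) and Gabbr1 (49.5% and 62.4%) lay above Gli2. Values close to those of Gli2, and the order of the libraries, follow from the choice of these genes and are given as a description. Dcbld1, a membrane protein gene, had 0.311 and 0.420 RPKM in siEsrrb, against 1.22 and 1.03 RPKM in siCtrl. Zfp57, which encodes a zinc finger protein that keeps methylation at imprinted genes, had 9.92 and 12.9 RPKM in siEsrrb, against 23.4 and 21.9 RPKM in siCtrl. Zfp42, a stem cell marker known as Rex1, had 8.05 and 10.8 RPKM in siEsrrb, against 17.9 and 17.6 RPKM in siCtrl. The 4 points behind each likeness share the 2 groups and the depths of the replicate pairs.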

How the data were processed

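Nascent RNA of 4 libraries (siEsrrb and siCtrl, 2 each) was used; the other 56 of 60 samples were not analysed here. The authors deposited RPKM per RefSeq transcript for 34929 transcripts. Per the submitters' processing notes, CASAVA 1.4 and TopHat2 were used with build mm9, and Bowtie 1.1.1 and Bowtie2 besides for replicate 1. The sources used here do not give the counting program, the annotation version or the use of strand. A table of the whole series equalled replicate 1 at all 34929 rows and was not used further.

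A symbol was found for 34631 transcripts through the RefSeq annotation of GRCm38.p6, used for names and gene order, and 298 without one were left out. For 74.6% of 15788 genes with 1 transcript above 0, model length lay within 1% of the annotated span. From the deposited RPKM, whole reads were recovered for 31765 of 31771 transcripts above 0 (99.981%, tolerance 0.001 of a read) and gave depths, counting intervals (exact, Clopper-Pearson, on pairs of libraries) and voom. RPKM were multiplied by median-of-ratios factors (1.087 and 0.9478 in siEsrrb, 1.049 and 0.9247 in siCtrl), 0.5 was added, and log2 values of 9758 genes with a mean of at least 0.5 RPKM were fitted with limma 3.58.1 in R 4.3.3 (trend, 2 groups, no replicate block), siEsrrb minus siCtrl. The added 0.5 understates changes of low genes. Adjusted p-values are two-sided Benjamini-Hochberg values over all tested genes. The fit was tested on simulated data.

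The 8 genes, the lists and the rules were chosen with earlier results of these data known. Named were the 8 genes, Esrrb, up to 4 tested genes per list with the largest log2 fold change, the nearest tested gene on either side of each member, and 5 genes most like Gli2; the wider neighbourhoods of Gli2 and Gli1 were added after values were seen. Some genes of the lists are not reported here and are not in the lists' counts. Promoter windows are RefSeq GRCm38.p6, found for 7 of the 8 genes. Alternatives changed the pseudocount, filter, scaling, transcript, tool, block and libraries.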

Additional observations from a re-analysis of the deposited data

How the results depend on the processing

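With 2 libraries per group and no stated cultures, depth was not the limit for Gli2, whose counting intervals are narrow. For Gpr161, Inhbb and Bcl2, which had fewer reads, these intervals were wider. Over the alternatives run, log2 fold changes ranged from -1.09 to -0.76 for Gli2 and from -0.70 to -0.28 for Gli1. For both, the groups did not overlap under any scaling, so the pseudocount or a left-out library could not turn the sign. Ptch1 (0.09 to 0.37) and Smo (0.10 to 0.19) kept their direction. Sufu ranged from -0.04 to 0.07 and Kif7 lay at or under 0 (lowest -0.10). Genes past the adjusted test numbered 0 to 12 with a library left out: 12 without siEsrrb replicate 2 and 2 without siCtrl replicate 1. A lone library is there assumed to vary like the other group. With limma 0 of 9758 genes passed, 520 lower and 578 higher had an unadjusted p under 0.05, and voom on recovered reads passed 0 (1191 unadjusted). Replicate numbers, which labels give only for the later libraries, were also used as a block: limma then passed 0 genes (2557 unadjusted) and voom 2752 (1276 higher and 1476 lower), among them 10 of the 33 other Hedgehog genes (6 higher and 4 lower). Deviations of the replicate 1 libraries from their group means correlated across genes at r = 0.386. The labels state no pairing. Replicate numbers also differ in depth and in the aligners listed, so what lies behind this correlation cannot be told apart. Of 545 values of 40 other named genes, 503 kept direction and side of the threshold, 24 passed it, all with voom and the block, and 18 turned sign. With a library left out, log2 fold changes ranged from -0.06 to 0.25 for Cdon, -0.22 to 0.12 for Kif3a, -0.29 to 0.08 for Mars1, -0.13 to 0.01 for Tnpo3 and -0.23 to 0.14 for Trim8. Without siEsrrb replicate 2, Cdon had -0.00241, Mars1 0.07, Ercc6l2 -0.00215, Trim8 0.13 and Dcaf6 -0.03. Without siCtrl replicate 1, Cdon had -0.06, Mars1 0.08, Tnpo3 0.01 and Trim8 0.14. Without siEsrrb replicate 1, Kif3a had 0.12, R3hdm2 0.02 and Actr1a -0.08, and without siCtrl replicate 2, Kif3a had 0.12 and Actr1a -0.03. With RPKM as deposited, Actr1a had -0.03 and Dcaf6 -0.01, and Actr1a was at -0.02 with voom and -0.03 with the block besides. The cause of these turns was not tested.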

Other observations

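Another stretch of adjacent tested genes that were all lower by at least 1.5-fold lies on chromosome 17. It was picked for these values, which are given as a description. It holds 2410137M14Rik, the nonclassical MHC class I gene H2-M5, Zfp57 and Gabbr1, which encodes a subunit of the GABA-B receptor. Of 9717 runs of 3 adjacent tested genes, 3 met the rule throughout, the run at Gli2 and overlapping ones in this stretch. Zfp57 and Gabbr1 are also among the 5 genes most like Gli2 named above. H2-M5 had 1.72 and 2.61 RPKM in siEsrrb, against 6.17 and 5.32 RPKM in siCtrl, or 28.9% and 50.3% of control. The uncharacterised gene 2410137M14Rik had 0.632 and 1.33 RPKM in siEsrrb, against 3.14 and 3.11 RPKM in siCtrl, from 50 and 292 reads in siEsrrb and 275 and 748 in siCtrl. Gabbr1 had 4.34 and 5.40 RPKM in siEsrrb, against 9.08 and 8.87 RPKM in siCtrl. The limma log2 fold changes were -1.21 (SE 0.19) for H2-M5, -1.31 (SE 0.22) for 2410137M14Rik and -0.79 (SE 0.12) for Gabbr1.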
